A study of Mus musculus with 20 samples.

Results

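S100 proteins are small EF-hand proteins, most of which bind calcium, and several of them are made in large amounts by myeloid cells and fibroblasts. The genes described here are 7 S100 genes (S100a4, S100a6, S100a8, S100a9, S100a10, S100a11 and S100a13) and 3 genes of neutrophil granules (Ngp, Camp and Ltf), a list of 10 genes in all. Each gene was read from the brightest of the probe sets that name it alone, which gave 9 of the 10 genes among 18193 genes read on the array. S100a11 is named only by a probe set that also names its pseudogenes, so it was not read.

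Livers came from male C57BL/6J mice (a second label field spells the strain C56BL/6J), 5 mice and 5 arrays for each of 4 diets, 20 arrays in all. Mice were 7 weeks old at the start and ate for 12 weeks either normal chow (NC, CRF-1), a diet with cholesterol at 1.25%, sodium cholate at 0.5% and fat as the source of 60% of calories (CL), or the same CL diet with 0.02% astaxanthin, a carotenoid antioxidant (CL + AX), or with 0.02% vitamin E, a lipid-soluble antioxidant (CL + VE). The livers were taken after a 2-h fast and no transgene or other agent is named. The CL diet is used as a dietary model of nonalcoholic steatohepatitis (NASH), a fatty liver with inflammation and fibrosis, and the study asked how the supplements alter the liver transcriptome under it. The 9 hepatocyte markers read, among them Alb and Apoa1, had a summed normalized signal of 86162 to 91570 over all 20 arrays, with ranges that overlapped between the 4 groups, although quantile normalization holds the sum of such bright probe sets nearly fixed. Between CL and NC 1 of these 9 markers was called higher (Fgb, 0.31) and 2 lower (Tat, -0.59, and Hnf4a, -0.29), and 8 were called lower with median centring and 7 with trimmed means. Of all genes read 12.0% were called higher, and the share of genes called lower was not taken. Of all 45037 probe sets 7910 were called, 52.8% of them higher. With median centring 8239 were called (41.6% of them higher), and with trimmed means 8698 (62.9% of them higher).

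S100a8 and S100a9 pair to form calprotectin, which fills the cytosol of neutrophils and is also made by monocytes, and which signals through the receptors TLR4 and RAGE. Ngp, Camp and Ltf encode proteins stored in the secondary granules of neutrophils and are transcribed mainly while these cells mature in the bone marrow. S100a4 and S100a6 are instead known from macrophages, fibroblasts and many other cells, and S100a10 forms a complex with annexin A2 at the cell membrane. Neutrophils, monocytes and fibroblasts all gather in steatohepatitis, but whole liver was measured, in which fewer cells of a type and less RNA per cell cannot be told apart.

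The promoters of the S100 genes called between CL and NC, of the calprotectin pair and of Ngp are shown because these genes moved together or apart in the data below. In the mouse annotation S100a8 and S100a9 are direct neighbours on chromosome 3, and S100a5 is the gene between S100a4 and S100a6, whereas Ngp, Camp and Ltf lie on chromosome 9 with other genes between them. RefSeq promoter windows of build GRCm38.p6, from 250 bases before to 50 bases after the annotated start, matched 9 of the 10 genes, and S100a10 had none in the table. They are printed 5′ to 3′ on the strand of the gene, in lower case, with matches to TATAAA (the TATA box) and to TTGCNNAA (the core shape bound by C/EBP factors of myeloid cells) in capitals, both motifs being searched on both strands.
S100a4 (chr3:90603520-90603819, + strand): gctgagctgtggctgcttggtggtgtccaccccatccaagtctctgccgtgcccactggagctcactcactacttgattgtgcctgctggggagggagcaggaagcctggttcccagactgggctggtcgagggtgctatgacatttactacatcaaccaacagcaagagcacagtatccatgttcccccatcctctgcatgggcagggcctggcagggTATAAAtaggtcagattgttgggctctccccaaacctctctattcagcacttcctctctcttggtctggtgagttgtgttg
S100a6 (chr3:90612644-90612943, + strand): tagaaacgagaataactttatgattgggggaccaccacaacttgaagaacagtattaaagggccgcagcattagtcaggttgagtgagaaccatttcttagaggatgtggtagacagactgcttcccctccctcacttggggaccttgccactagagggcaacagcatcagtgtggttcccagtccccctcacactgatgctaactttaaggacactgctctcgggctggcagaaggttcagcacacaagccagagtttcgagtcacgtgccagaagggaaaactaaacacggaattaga
S100a8 (chr3:90668821-90669120, + strand): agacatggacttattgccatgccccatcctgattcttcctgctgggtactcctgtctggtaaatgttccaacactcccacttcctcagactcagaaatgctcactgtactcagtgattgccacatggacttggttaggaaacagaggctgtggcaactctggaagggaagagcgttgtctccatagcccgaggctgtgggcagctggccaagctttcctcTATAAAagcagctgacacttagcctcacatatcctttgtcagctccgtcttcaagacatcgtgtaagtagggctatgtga
S100a9 (chr3:90695672-90695971, - strand): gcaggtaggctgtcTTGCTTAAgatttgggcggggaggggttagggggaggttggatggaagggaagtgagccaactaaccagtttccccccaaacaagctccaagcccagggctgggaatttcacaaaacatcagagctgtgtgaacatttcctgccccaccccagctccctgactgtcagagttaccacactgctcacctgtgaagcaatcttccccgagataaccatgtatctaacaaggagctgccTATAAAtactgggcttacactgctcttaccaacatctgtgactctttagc
Ngp (chr9:110419558-110419857, + strand): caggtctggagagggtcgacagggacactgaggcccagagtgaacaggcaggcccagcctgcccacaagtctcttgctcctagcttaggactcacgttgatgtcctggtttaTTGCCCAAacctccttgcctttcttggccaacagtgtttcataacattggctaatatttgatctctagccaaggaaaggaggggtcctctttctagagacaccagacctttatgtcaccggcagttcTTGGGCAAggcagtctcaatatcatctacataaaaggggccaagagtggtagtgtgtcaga
TATAAA occurred in 3 of the 9 windows (S100a4, S100a8 and S100a9), beside 13.6% of all 32851 mouse promoter windows. It began 31 bases before the annotated start in S100a4 and 30 bases before it in S100a8, a position (20 to 40 bases before the start, on the strand of the gene) at which 1.99% of all windows held it. In S100a9 it began at position 1, the annotated start itself. TTGCNNAA also occurred in 3 of the 9 windows, beside 10.8% of all windows: at 236 bases before the start in S100a9, at 138 and 11 bases before it in Ngp, and at 75 bases before it in Ltf. The windows of S100a6, S100a11, S100a13 and Camp held neither set of letters. A match is a description of the letters and no factor binding was measured.

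**Figure D1:**
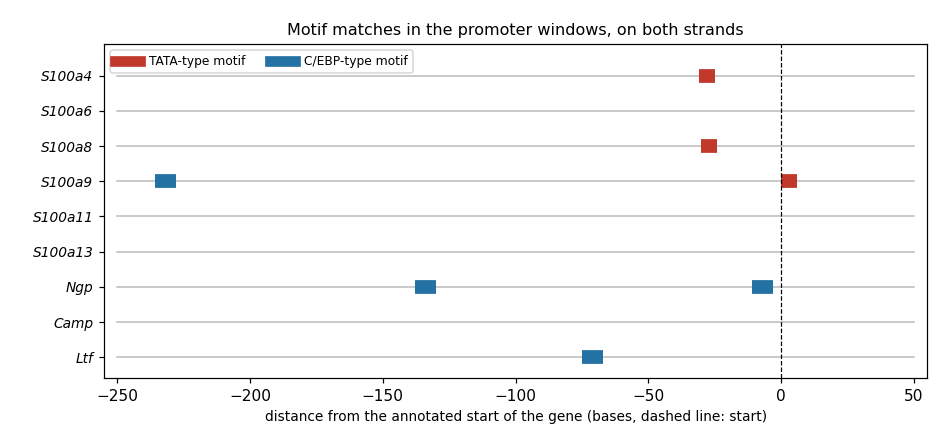
Positions of TATA-type (red) and C/EBP-type (blue) motif matches on either strand in the promoter windows of 9 genes, with the distance from the annotated start in bases on the x axis. TATA-type matches lie 31 and 30 bases before the start in S100a4 and S100a8 and at the start in S100a9, and the windows of S100a6, S100a11, S100a13 and Camp have no mark.

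S100a4 was 5.32-fold and S100a6 1.96-fold higher in CL than in NC livers, and both differences passed the test, while S100a8 and S100a9 and the granule genes Ngp, Camp and Ltf did not differ beyond the spread between mice. The size of the S100a4 fold is uncertain, because its signals in NC livers were dim, as given below. By limma with the Benjamini-Hochberg adjustment over all probe sets, 2 of the 9 genes were called between CL and NC, both higher, beside 12.0% of all 18193 genes called higher. The groups did not overlap for 3 of the 9 genes (S100a4, S100a6 and S100a13), beside 15.9% of all genes. The median log2 difference of the 9 genes was -0.02, beside -0.04 for all genes.

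S100a4 encodes metastasin, a calcium-dependent partner of nonmuscle myosin that is also known as fibroblast-specific protein and is abundant in macrophages. Its normalized log2 signal in the 5 NC livers was 2.42, 3.50, 3.88, 2.50 and 4.47. In the 5 CL livers it was 5.20, 7.24, 4.83, 6.08 and 5.48. Every CL liver was above every NC liver, with group means of 5.76 ± 0.94 (SD, n = 5) and 3.35 ± 0.89 (SD, n = 5). The deposited NC signals of this probe set were 3.50 to 20.4, near or below the median signal of their arrays, and no detection call was available, so that the size of the fold is uncertain: with 16 added to the signals the log2 difference was 1.41 (adjusted p = 0.011). In CL + AX livers the signal was 7.50, 7.10, 4.52, 6.42 and 6.69, and in CL + VE livers 6.02, 5.84, 4.96, 4.79 and 6.59. Both supplemented groups thus also lay above all 5 NC livers, although the lowest CL + AX liver (4.52) was only just above the highest NC liver (4.47). The log2 difference was 2.41 (SE 0.52, adjusted p = 0.0021) for CL against NC, 3.10 (adjusted p = 0.0002) for CL + AX against NC and 2.29 (adjusted p = 0.0048) for CL + VE against NC. These 3 comparisons share the NC livers.

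S100a6, or calcyclin, binds annexins and the protein Cacybp and is found in fibroblasts and epithelia. Its log2 signal was 5.25, 5.72, 5.85, 5.23 and 5.80 in NC livers and 6.35, 7.11, 6.17, 6.64 and 6.44 in CL livers. The 2 groups did not overlap, and the spread within each was narrower than for S100a4 (SD 0.30 and 0.36, n = 5 each). CL + AX livers gave 7.09, 7.25, 6.14, 7.04 and 7.13, and CL + VE livers 6.12, 6.38, 6.22, 8.13 and 7.08. All of these again exceeded the highest NC liver. The difference against NC was 0.97 (SE 0.30, adjusted p = 0.025) in CL, 1.36 (adjusted p = 0.0024) in CL + AX and 1.22 (adjusted p = 0.0080) in CL + VE. The call for CL against NC was the less firm of the 2 genes: it was lost without NC replicate 1 or 4 or CL replicate 2 or 4 and with a variance prior that does not follow the signal, with adjusted p values up to 0.078 over all alternatives.

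S100a8 and S100a9 showed no such step between CL and NC. The log2 signal of S100a8 was 6.91, 5.86, 8.20, 6.03 and 7.84 in NC livers and 5.34, 8.64, 5.86, 8.53 and 6.37 in CL livers. The CL livers thus held both the lowest value and the highest value of the 10, and the group means of 6.97 ± 1.05 and 6.95 ± 1.54 (SD, n = 5 each) were nearly equal. S100a9 gave 6.90, 5.37, 7.81, 5.53 and 7.28 in NC livers and 5.13, 7.67, 5.62, 7.57 and 5.71 in CL livers. The same livers were high and low for both genes. The difference for CL against NC was -0.02 (95% confidence interval -1.29 to 1.25, adjusted p = 0.99) for S100a8 and -0.24 (-1.36 to 0.87, adjusted p = 0.83) for S100a9, intervals that leave room for a change of more than 2-fold in either direction for S100a8.

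Within arrays the log2 difference between CL and NC of S100a4 was 2.43 above that of S100a8 and 2.65 above that of S100a9. That of S100a6 was 0.99 above that of S100a8 and 1.22 above that of S100a9. These pairs of genes were chosen after their values were seen, so the sizes are a description with no test.

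The 3 genes of secondary granules did not pass either. Ngp, a cystatin-like granule protein, had log2 signals of 3.38, 5.78, 5.57, 4.85 and 4.39 in NC livers and 4.50, 4.41, 3.88, 5.91 and 4.61 in CL livers, a difference of -0.13 (95% confidence interval -1.10 to 0.83, adjusted p = 0.90). Ltf, the iron-binding lactoferrin, ran from 2.79 to 5.32 (median 4.23) in NC livers and from 3.25 to 4.71 (median 3.86) in CL livers, a difference of -0.31 (-1.54 to 0.91). Camp, the antimicrobial cathelicidin, was dim: only 25.1% of all probe sets had a mean signal no higher than its own, and its log2 signal ran from 1.14 to 2.87 in NC livers. In CL livers it ran from 0.999 to 2.00 in 4 livers and was 4.59 in replicate 4, so that the difference of 0.39 (-1.19 to 1.96) was -0.22 without that liver. The groups overlapped for all 3 genes.

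S100a10 and S100a13 moved by little. S100a10, the annexin A2 partner of plasminogen binding at the cell surface, gave log2 signals of 11.12, 10.96, 10.47, 10.57 and 11.12 in NC livers and 10.89, 11.38, 10.94, 11.45 and 11.72 in CL livers. The difference of 0.43 (SE 0.15) missed the threshold (adjusted p = 0.055). It passed in CL + AX against NC (0.46, adjusted p = 0.042) and in CL + VE against NC (0.54, adjusted p = 0.022), but with the arrays centred on their medians these differences were -0.0047 (adjusted p = 0.99) and 0.38 (adjusted p = 0.17). Both calls were also lost with a variance prior that does not follow the signal, with the methods' t-test and with the mean of the 3 probe sets (0.13 and 0.12). The call for CL + AX was lost as well with trimmed means and without NC replicate 2, 3 or 4 or CL + AX replicate 1, 2, 4 or 5, and that for CL + VE with signals as deposited and without NC replicate 3 or 4 or CL + VE replicate 4 or 5. The gene has 3 probe sets, and they disagreed in CL + VE against NC. A second bright one differed from NC by 0.55 in CL (adjusted p = 0.0018) and by 0.32 in CL + AX (adjusted p = 0.064). In CL + VE it was 0.66 higher than in NC (adjusted p = 0.0005), while the dimmest was lower (-0.83, adjusted p = 0.0090). For CL against NC the mean of the 3 probe sets gave 0.44 (adjusted p = 0.017), but median centring gave 0.14. S100a13, which takes part in the release of FGF1 and interleukin-1α, went the other way, with 9.52, 9.45, 9.53, 9.45 and 9.65 in NC livers and 9.21, 9.40, 9.43, 9.03 and 9.40 in CL livers. All 5 CL livers were below all 5 NC livers, yet the difference of -0.23 (SE 0.08) missed the threshold (adjusted p = 0.053). The S100a13 result depended on the scaling: it passed with median centring (-0.38, adjusted p = 0.011) and with trimmed means (-0.24, adjusted p = 0.040) and was 0.12 with the signals as deposited (adjusted p = 0.63).

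**Figure D2:**
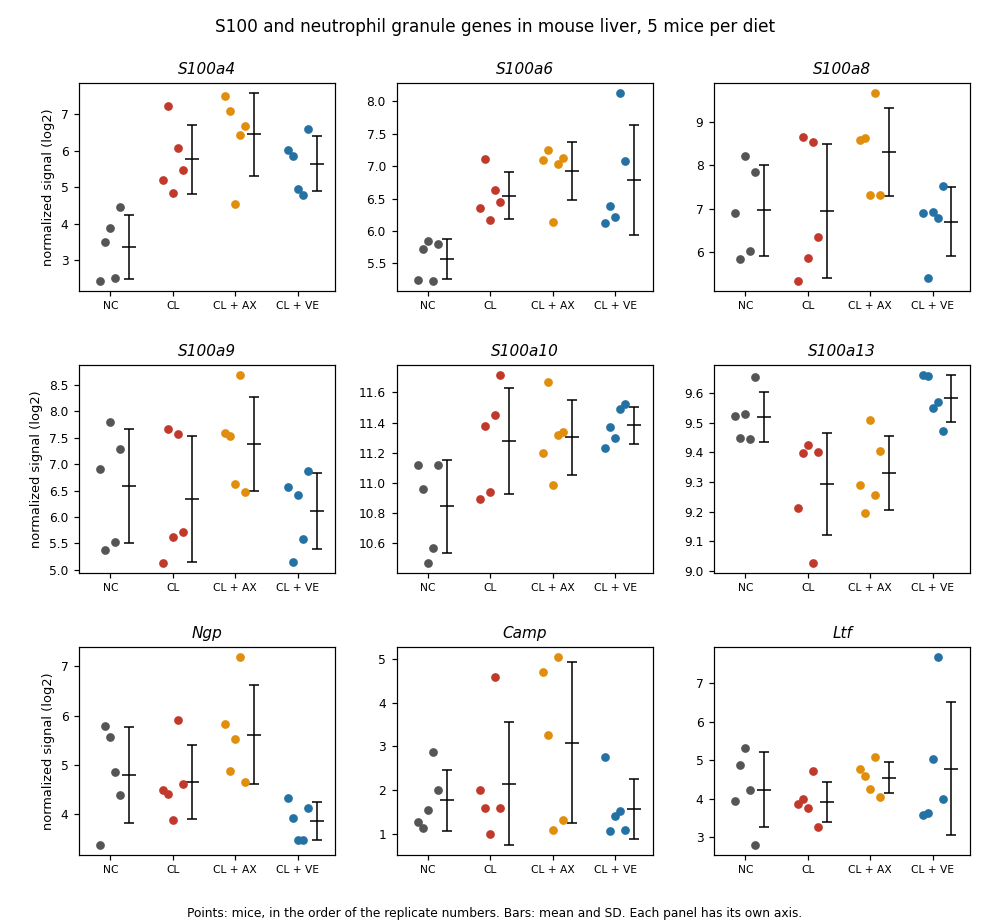
Normalized log2 signal of the 9 genes read (y axes, each with its own range) in the 5 livers of each diet group (x axis), with 1 point per mouse and the mean ± SD beside the points. S100a4 lies between 2.42 and 4.47 in NC livers and between 4.52 and 7.50 in the other 3 groups, whereas the 4 groups of S100a8 overlap.

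Other measures moved with the diet beside S100a4 and S100a6. Of 13 macrophage and monocyte markers read, 12 were called higher in CL than in NC and none lower, with a median log2 difference of 2.44, and their summed normalized signal was 1666 to 5286 in NC livers and 8746 to 23280 in CL livers. They included the lysozyme gene Lyz2 (3.41), the monocyte chemokine receptor gene Ccr2 (2.99), Gpnmb (5.36) and the receptor gene Csf1r (1.80). Of 10 stellate cell and fibroblast markers, 8 were called higher, among them Vim (2.03) and Col3a1 (2.20), and their summed signal was 2479 to 3829 in NC and 6287 to 12137 in CL livers. Every probe set has a signal above 0 and no detection call was available, so the detection of these markers was not assessed. Of 7 bile duct markers 1 was called higher (Sox9, 0.89), and of 5 erythroid markers 2 were called lower (Alas2, -1.03, and Slc4a1, -2.78). Beside these counts 12.0% of all genes were called higher between CL and NC, a share near that of the bile duct markers. The share of all genes called lower was not taken, but of all 45037 probe sets 7910 were called, 52.8% of them higher. The part of the other cell types in the differences of S100a4 and S100a6 was not tested.

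Signs of RNA or labelling quality also differed between NC and the other groups, and 1 of them between CL + VE and the other CL diets. The log2 ratio of the 3′ to the 5′ probe set of the Gapdh control was 0.38 to 0.78 in NC livers, -0.26 to -0.09 in CL livers, -0.18 to -0.05 in CL + AX livers and -0.16 to 0.11 in CL + VE livers. For the bacterial Dap control, which is added to the RNA, it was 2.97 to 3.39 in NC livers and 0.99 to 2.26 in the other 3 groups. For the Actb control it was 1.54 to 1.95 in NC livers and 1.01 to 1.25 in CL livers. It was 1.07 to 1.23 in CL + AX livers and 1.32 to 1.51 in CL + VE livers. The median deposited signal of an array was 13.01 to 18.79 in NC, 19.4 to 24.8 in CL, 26.4 to 27.7 in CL + AX and 17.0 to 20.7 in CL + VE livers. The 3 ratios did not overlap between NC and the other groups, so they and the diet cannot be told apart in comparisons with NC. The Actb ratio of CL + VE livers did not overlap with that of CL or CL + AX livers either. In those comparisons it and the supplement cannot be told apart. The median signal overlapped between NC and CL + VE livers and between CL and CL + VE livers. In CL + AX livers it lay above that of every other group, so in comparisons with CL + AX it and astaxanthin cannot be told apart. The part of these measures in the differences was not tested.

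Binding partners and receptors of S100 proteins were read as a further list between CL and NC. Of 13 genes read, 5 were called higher and 1 lower, with a median log2 difference of 0.42, beside 12.0% called higher and a median of -0.04 over all genes. Anxa2, the partner of S100a10, rose by 1.82 (SE 0.33, adjusted p = 0.0004), Anxa1, known as a partner of S100a11, by 1.69 (SE 0.37, adjusted p = 0.0025), and the calprotectin receptor gene Tlr4 by 1.30 (SE 0.26, adjusted p = 0.0011). Ahnak, a scaffold protein of the S100a10 and annexin A2 complex, and Emb, a membrane protein related to basigin, completed the count with 0.60 and 0.77 and are named after their values were seen. Fgf1, the growth factor released together with S100a13, was the gene that fell (-0.46, adjusted p = 0.0082). Of 7 other S100 genes read, none was called in any of the 6 comparisons by limma, and in CL against NC 0 had an unadjusted p under 0.05, with at most 1 in each of the other comparisons. S100a1 differed by -0.10 (SE 0.07), S100a5 by -0.52 (SE 0.32), S100a14 by -0.74 (SE 0.63) and S100a16 by -0.07 (SE 0.07). Only 2 of the 7 genes had at least median signal. S100a14 was dim, with mean log2 signals of 0.19 in CL and 0.94 in NC livers. Other scalings of the arrays gave 1 call in this list: higher in CL + AX against NC with signals as deposited, lower there with trimmed means, and lower with median centring in CL against NC, CL + AX against NC and CL + AX against CL + VE.

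Lists of other neutrophil genes are read against the 12.0% of all genes called higher between CL and NC. Of 13 other granule protein genes read, only Chil3 (Ym1, also made by macrophages) was called, 4.05 higher in CL (SE 0.78, adjusted p = 0.0008), while Prtn3 (-1.91), Mpo (-0.70) and Slpi (0.72) did not pass. Of 11 genes of the neutrophil surface and identity, 3 were called higher: the C-type lectin genes Clec4e (3.99) and Clec4d (2.61) and the formyl peptide receptor gene Fpr2 (2.08), which monocytes and macrophages also express. The receptor gene for granulocyte colony-stimulating factor, Csf3r, differed by 1.64 (adjusted p = 0.064), and the median of the list was -0.01. Of 10 genes for neutrophil attractants 4 were called higher, the chemokine genes Cxcl1 (2.39), Cxcl2 (3.36) and Cxcl5 (4.22) and the cytokine gene Il1b (1.47), and the median was 1.25. Some of these genes were dim in NC livers, with mean log2 signals of 0.22 for Chil3, 0.16 for Cxcl5 and 0.75 for Clec4e. Those of Clec4d and Cxcl2 were 2.29 and 2.70. No detection call was available, so the sizes of the differences of these dim genes are uncertain.

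**Figure D3:**
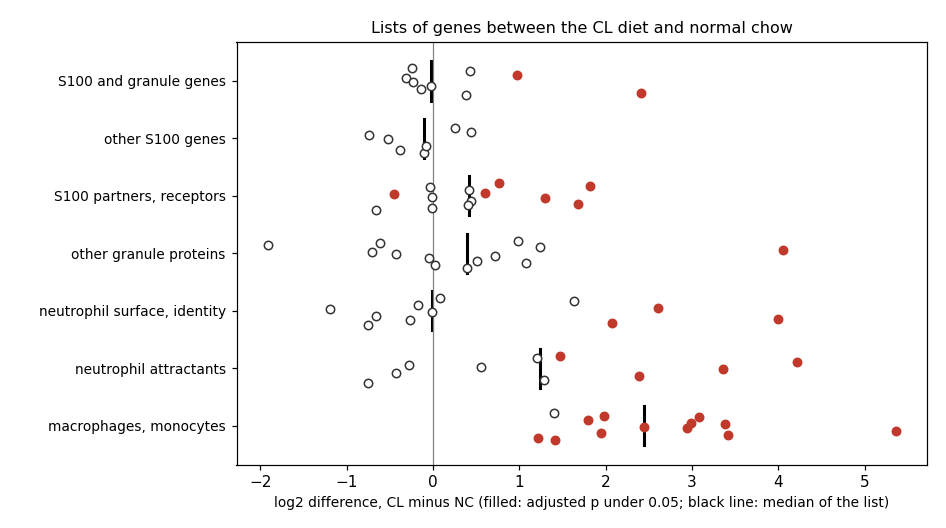
Log2 differences of CL minus NC livers (x axis) for the 9 genes described here and for 6 other lists, with 1 point per gene, filled where the adjusted p is under 0.05, and a black line at the median of each list. The medians are -0.02 for the S100 and granule genes, 1.25 for the neutrophil attractants and 2.44 for the macrophage and monocyte markers.

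With a supplement none of the 9 genes differed from the CL group past the adjusted threshold, by limma or by the methods' t-test. With astaxanthin all 9 differences against CL were above 0, with a median of 0.68 beside 0.01 for all genes, and the differences of S100a10 and S100a13 were below 0 once arrays were centred on their medians. None of the 9 was called by limma (0% of all genes were), 1, S100a8, had an unadjusted p under 0.05 (8.05% of all genes) and none had groups that did not overlap (1.96% of all genes). Median array signal differed without overlap between CL + AX and CL livers, as given above, and its part in these differences was not tested. With vitamin E 4 of 9 differences against CL were above 0, with a median of -0.12. Here too none was called (0% of all genes), 1, S100a13, had an unadjusted p under 0.05 (7.55% of all genes) and groups that did not overlap (1.59% of all genes), with a difference of 0.29 (SE 0.08, adjusted p = 0.30).

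The calprotectin genes had their highest group means in CL + AX livers. S100a8 gave log2 signals of 8.59, 8.64, 7.31, 9.67 and 7.32 there, and 6.90, 5.40, 6.92, 6.79 and 7.53 in CL + VE livers. Every CL + AX liver was above the mean of the CL group (6.95), but 2 CL livers, at 8.64 and 8.53, reached into the CL + AX range. S100a9 gave 7.59, 7.53, 6.62, 8.69 and 6.48 in CL + AX livers and 6.57, 5.15, 6.41, 5.58 and 6.87 in CL + VE livers. The difference of CL + AX against CL was 1.36 (SE 0.61, unadjusted p = 0.037, adjusted p = 0.66) for S100a8 and 1.05 (SE 0.54, adjusted p = 0.73) for S100a9. In CL + VE against CL the differences were -0.24 (95% confidence interval -1.51 to 1.03) and -0.22 (-1.34 to 0.89). In order of the group means S100a8 stood at 8.31 in CL + AX, 6.97 in NC, 6.95 in CL and 6.71 in CL + VE livers, and neighbours in this order did not differ past the adjusted threshold.

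Astaxanthin and vitamin E were set directly against each other at the same share of the diet. The log2 signal of Ngp was 5.84, 4.87, 5.52, 7.19 and 4.65 in CL + AX livers and 4.34, 3.94, 3.48, 3.49 and 4.13 in CL + VE livers. All 5 livers with astaxanthin were above all 5 with vitamin E. The difference of 1.74 (SE 0.46, unadjusted p = 0.0011), or 3.34-fold, had an adjusted p of 0.21 and did not pass over all probe sets. With signals as deposited it was 2.24 (adjusted p = 0.025) and with arrays centred on their medians 1.69 (adjusted p = 0.038), and it passed in both. Those 2 scalings called 1886 and 1652 of all probe sets in this comparison, 99.6% and 2.18% of them higher. With 16 added to the signals the difference was 1.12, and the adjusted p was up to 0.49 over all alternatives. The deposited Ngp signals were dim in CL + VE livers (9.26 to 17.3, beside array medians of 17.0 to 20.7). No detection call was available, so the size of the fold is uncertain. The NC livers (3.38 to 5.78) and the CL livers (3.88 to 5.91) covered the space between the 2 supplemented groups.

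Between the supplements none of the 9 genes was called by limma or the methods' t-test, and limma called 0% of all genes, and 4 had an unadjusted p under 0.05, 3 higher and 1 lower in CL + AX, beside 10.2% of all genes. The groups did not overlap for 1 of the 9, Ngp, beside 2.53% of all genes. S100a8 differed by 1.60 (SE 0.61, adjusted p = 0.42) and S100a9 by 1.27 (SE 0.54, adjusted p = 0.49), with every CL + AX liver above the CL + VE mean. S100a13 was the gene in the other direction, by -0.25 (SE 0.08, adjusted p = 0.30), which was 0.087 with signals as deposited and -0.46 (adjusted p = 0.018) with median centring. It gave 9.29, 9.20, 9.51, 9.26 and 9.40 in CL + AX livers and 9.66, 9.66, 9.55, 9.57 and 9.47 in CL + VE livers, the latter all above the highest CL liver (9.43). S100a4 differed by 0.81 (-0.28 to 1.89), S100a6 by 0.14 (-0.48 to 0.76) and S100a10 by -0.08 (-0.40 to 0.24), so a 3-fold difference in S100a4 lay within its interval. Camp ranged from 1.10 to 5.04 in CL + AX and from 1.08 to 2.76 in CL + VE livers, and Ltf from 4.05 to 5.09 and from 3.57 to 7.70, the last value being that of CL + VE replicate 4, the liver with the highest S100a6 as well. Median array signal and the Actb ratio both differed between these 2 groups without overlap, as given above. Their part in these differences was not tested.

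The other neutrophil lists held no call among the 3 CL diets by limma under quantile normalization. In CL + AX against CL + VE 2 attractant genes and 1 other granule gene were called higher with signals as deposited, and 1 other granule gene was called lower with median centring. As deposited 1886 of all 45037 probe sets were called there, 99.6% of them higher. With median centring 1652 were called, only 2.18% of them higher. At an unadjusted p under 0.05, beside 10.2% of all genes in this comparison, stood 3 of 11 surface and identity genes, 2 of 10 attractant genes and 1 of 13 other granule genes, all higher in CL + AX. The list medians were 0.27, 0.95 and 0.21, beside -0.02 for all genes. In CL + AX against CL the surface and identity genes had a median of 0.63 with 0 of 11 under that p, the attractants one of 0.28 with 1 of 10, and the other granule genes one of 0.01 with 2 of 13, beside 8.05% of all genes. In CL + VE against CL the medians were -0.02, -0.64 and -0.06 in the same order, with 1 attractant gene lower at that p, beside 7.55% of all genes.

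**Figure D4:**
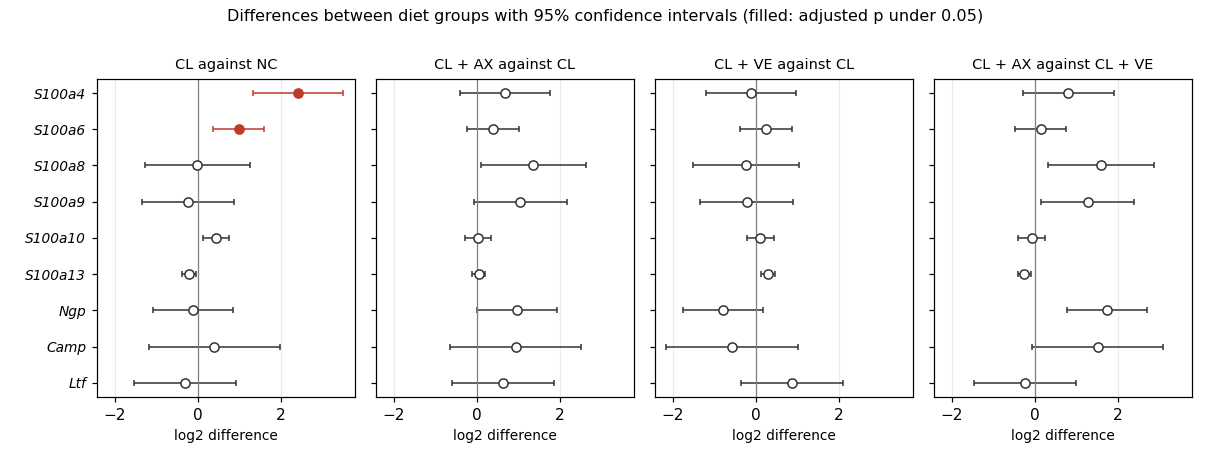
Log2 differences (x axis) of the 9 genes (rows) in 4 comparisons of diet groups of 5 mice, with 95% confidence intervals, filled where the adjusted p is under 0.05. S100a4 (2.41) and S100a6 (0.97) are filled for CL against NC and no gene is filled in the 3 comparisons among the CL diets.

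Against normal chow each supplemented group gave 3 calls among the 9 genes, S100a4, S100a6 and S100a10, all higher and the last of them not held by other settings as given above, beside 12.0% of all genes called higher with CL + AX and 10.2% with CL + VE. The groups did not overlap for 2 of the 9 genes with CL + AX (16.9% of all genes) and for 3 of the 9 with CL + VE (12.3% of all genes). S100a8 differed by 1.34 in CL + AX against NC (adjusted p = 0.15) and by -0.26 in CL + VE against NC (adjusted p = 0.85). With the signals as deposited, which raises the median of all probe sets by 0.63 in CL + AX against NC, 7 of the 9 genes were called there, with S100a8, S100a9, Ngp and Camp added. That scaling called 16596 of all 45037 probe sets in this comparison, 97.7% of them higher. With median centring S100a13 was instead called lower in CL + AX than in NC (-0.50, adjusted p = 0.00097), beside -0.19 (adjusted p = 0.11) here and 0.27 as deposited. The calls of S100a4 and S100a6 in CL + VE against NC were lost with the methods' t-test (adjusted p = 0.057 and 0.19).

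The spread between mice of 1 group was wide for most of these genes. The pooled SD within groups was 1.13 on the log2 scale for S100a8, 0.99 for S100a9, 0.94 for S100a4, 1.05 for Ltf and 0.81 for Ngp, beside a median of 0.21 over 11398 genes of at least median signal. For S100a8 99.6% of those genes had a smaller SD, and for S100a13 (SD 0.12) 14.5% did. Within the CL group S100a8 spanned a 9.84-fold range between livers, and within the NC group a 5.07-fold range.

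S100a8 and S100a9 varied together from liver to liver. Over the 20 arrays their log2 signals had a Pearson r of 0.97 and a Spearman rho of 0.95, and r was also 0.97 after the group means were removed. The next gene in likeness to both was Slfn4, a Schlafen gene of myeloid cells (r of 0.86 with S100a8 and 0.84 with S100a9), followed for S100a8 by Ldha (0.83), Atp6v0d1 (0.82) and Rps24 (0.81), and for S100a9 by Atp6v0d1, Ldha and Vegfb. The likeness of Slfn4 was 0.85 with S100a8 when arrays were centred on their medians, whereas that of Ldha was -0.23, that of Rps24 -0.09 and that of Atp6v0d1 -0.04 under that scaling. With S100a9 it was then 0.83 for Slfn4 and 0.70 for Vegfb, but 0.04 for Atp6v0d1 and -0.10 for Ldha. S100a4 and S100a6 had an r of 0.76, which was 0.43 within groups. The points share their arrays, and the 20 livers fall into 4 diet groups, so these values are descriptions.

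The granule genes were less alike. Ngp and Camp had an r of 0.67 over the 20 arrays, Ngp and S100a8 of 0.54, Camp and S100a8 of 0.62, and Ltf had an r of 0.20 with S100a8, 0.11 with Ngp and 0.15 with Camp. The genes most alike to Ngp were Tbcd (0.78), Hnrnpk, Alg8, Crtc2 and Apcs (0.69), and with median centring the r of Ngp with Hnrnpk was 0.0085 and with Alg8 0.45. Those most alike to Camp were Ddx39a (0.71), Ngp, Dcp2, Irak3 and S100a8 (0.62), and those most alike to Ltf were Plet1 (0.77), 5830411N06Rik, Sftpd, Acta2 and Dph3 (0.69). With median centring the r of Camp with Ddx39a was 0.46 and that of Ltf with Dph3 was 0.31. Ltf stood highest in CL + VE replicate 4 (7.70), and its order of livers was not that of the calprotectin genes.

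**Figure D5:**
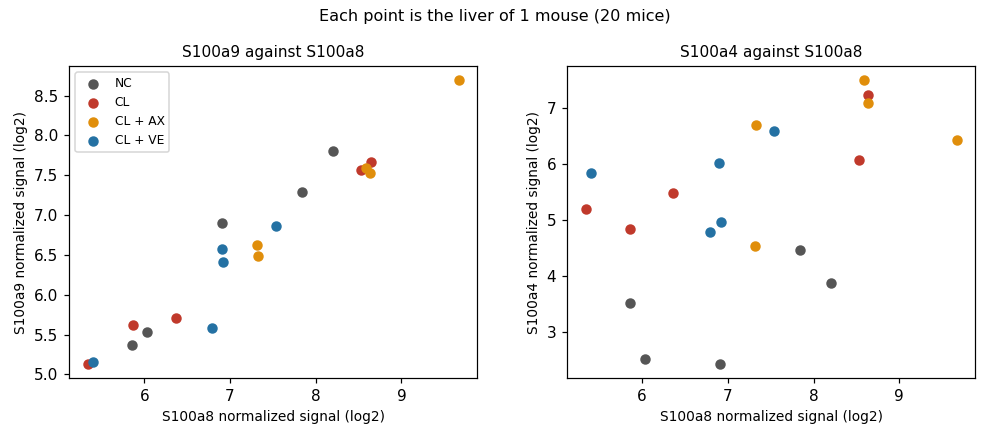
Log2 signals of S100a9 (left) and S100a4 (right) against S100a8 in the 20 livers, 1 point per mouse, coloured by diet group. S100a9 follows S100a8 across all groups (Pearson r of 0.97), while the NC livers (grey) lie below the other groups in S100a4, at 2.42 to 4.47, over the range of S100a8.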

How the data were processed

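Liver RNA of each of 20 mice was hybridized to 1 Affymetrix whole-genome mouse array. Per the study's methods, the authors scanned the arrays with the GeneChip Operation Software 1.4 and analysed them with Microarray Suite 5.9 (MAS5), which gives 1 linear intensity value per probe set, and with the Subio platform 1.19. The deposited intensity values (45101 probe sets) are not on 1 common level across arrays and carry no detection call or depth, so the number of arrays limits the precision. The deposited intensities were converted here to log2 and quantile normalized, 64 control probe sets were removed, and the remaining 45037 were compared in limma 3.58.1 under R 4.3.3, in 1 model of the 4 groups (16 residual degrees of freedom, variance prior following the mean signal), for 6 comparisons. Adjusted p values are Benjamini-Hochberg values over these 45037 probe sets; the threshold was 0.05. Of these probe sets 34945 name 1 gene, 932 several and 9160 none; genes were read from the brightest probe set that names them alone. An unadjusted p is that of the same test.

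The members and the other lists of genes were chosen with earlier results of these data known. All listed genes are named, with up to 4 genes of each other list by the smallest p between CL and NC, and the 5 genes most alike by Pearson r over the 20 arrays among those of at least median signal. Alternatives covered the scaling, an offset of 16, a filter on dim probe sets, the variance prior, the samples in the fit, a replicate block, the methods' t-test, the mean of all probe sets and each array left out. The fit was tested on simulated data. No 2 arrays were identical, and arrays of 1 group correlated at 0.90 to 0.94. Dates or batches of labelling are not given in the sources used here.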

Additional observations from a re-analysis of the deposited data

Results flagged for a closer look

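In 3 of 36 groups of 5 livers tested (9 genes in 4 groups), 1 liver lay far from the other 4, where chance alone flags about 1 in 20 groups. S100a6 in CL + AX replicate 3 was 6.14 on the log2 scale, beside 7.04 to 7.25 in the other 4 livers, and this liver also had the lowest S100a4 of its group (4.52). Camp in CL replicate 4 was 4.59, beside 0.999 to 2.00 in the other 4, and this liver had the highest Ngp of its group (5.91). Camp in CL + VE replicate 1 was 2.76, beside 1.08 to 1.53 in the other 4, and Ngp was also highest there (4.34).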

How the results depend on the processing

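S100a4 stayed higher in CL than in NC, and past the threshold, under every alternative, with log2 differences from 1.41 (log2 of signal plus 16) to 2.93 (signals as deposited). The rise of S100a6 in CL kept its sign (0.78 to 1.51) but the count of called genes fell to 1 with a variance prior without trend. Of the 9 genes, 4 were called between CL and NC with the replicate block, where S100a10 and S100a13 were added, and from 1 to 4 with arrays left out. The same 4 genes were called when dim probe sets were dropped, a filter that leaves Camp out. In CL + VE against NC 0 of the 9 passed the methods' t-test. The replicate numbers do not pair the livers (correlations of -0.03 to 0.04, no pair over 0.1), and with the block 0, 3 and 5 probe sets were called in CL + AX against CL, CL + VE against CL and CL + AX against CL + VE, beside 1, 0 and 1 without it.

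Scaling moved more. With signals as deposited the median of all probe sets shifted by 0.40 in CL against NC, -0.23 in CL + VE against CL and 0.43 in CL + AX against CL + VE, and 0, 26, 1886 and 16596 probe sets were called in CL + AX against CL, CL + VE against CL, CL + AX against CL + VE and CL + AX against NC. Of the 9 genes 1 was called between the supplements and 7 in CL + AX against NC. The sign then turned in CL against NC for S100a8 (0.48), S100a9 (0.28), S100a13 (0.12), Ngp (0.41) and Ltf (0.19), in CL + VE against CL for S100a6 (-0.0063) and S100a10 (-0.043), in CL + AX against CL + VE for S100a10 (0.17), S100a13 (0.087) and Ltf (0.32), in CL + AX against NC for S100a13 (0.27) and in CL + VE against NC for Camp (0.032). With median centring 0 probe sets were called in CL + AX against CL and 1652 between the supplements, 2 of the 9 genes among them (Ngp and S100a13), and the sign turned for S100a10 (-0.15) and S100a13 (-0.12) in CL + AX against CL, S100a10 (-0.0047) in CL + AX against NC and S100a13 (-0.040) in CL + VE against NC. Trimmed-mean scaling turned S100a8 (0.12) and Ngp (0.048) in CL against NC and S100a10 (-0.0053) in CL + AX against CL, and the offset turned S100a8 (0.016) in CL against NC. The cause was not tested. Of the probe sets called between CL and NC 52.8% were higher in CL, beside 95.9% as deposited, 41.6% with median centring and 62.9% once trimmed means were equal.

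Among other settings, the offset gave 0 probe sets between the supplements, and the variance prior without trend gave 0 there and 0 in CL + AX against CL. A fit of only the 2 groups compared called 3 probe sets in CL + VE against CL and 24 between the supplements. The methods' t-test called 3444, 0, 3964 and 1632 probe sets in CL against NC, CL + AX against CL, CL + AX against NC and CL + VE against NC, beside 7910, 1, 7762 and 5895 by limma; unadjusted, it called 10610 in CL against NC. The mean of its 3 probe sets turned S100a10 in CL + AX against CL (-0.31), CL + VE against CL (-0.31) and between the supplements (0.0048).

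With 1 array left out the signs of small differences turned. In CL against NC these were S100a8 (-0.44 to 0.38), S100a9 (-0.58 to 0.064), Ngp (-0.49 to 0.11) and Camp (-0.22 to 0.68). In CL + AX against CL they were S100a10 (-0.070 to 0.14) and S100a13 (-0.029 to 0.072). In CL + VE against CL they were S100a4 (-0.36 to 0.24), S100a6 (-0.094 to 0.41), S100a8 (-0.64 to 0.18), S100a9 (-0.53 to 0.11) and Camp (-0.87 to 0.031). Between the supplements they were S100a6 (-0.025 to 0.48) and Ltf (-0.54 to 0.49). In CL + AX against NC it was Ltf (-0.046 to 0.59), and in CL + VE against NC S100a8 (-0.54 to 0.068), Camp (-0.49 to 0.082) and Ltf (-0.18 to 0.85). The probe sets called ran from 0 to 2 in CL + AX against CL and in CL + VE against CL, and from 0 to 13 between the supplements.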
